A study of Homo sapiens with 4 samples.

Results

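TRIO, a large gene on the short arm of chromosome 5, held 37 of the 25514 H4K20me1 peaks listed for Kasumi-1 cells. They are the peaks whose nearest gene is TRIO or whose annotation gives TRIO as the host of the exon or intron. H4K20me1 was profiled by CUT&Tag, in which an antibody against a histone mark tethers the Tn5 transposase, so that DNA near the mark is cut and sequenced. Kasumi-1 is an acute myeloid leukemia cell line with the t(8;21) translocation. The series has 2 libraries of cells with a SETD8 knockout made by CRISPR/Cas9 (sgSETD8) and 2 of cells labelled wild type and sgNT, the usual name of a non-targeting guide, each from 100000 cells. A value of so many cells cannot tell more marked cells from more mark per cell. The labels do not say whether the knockout was a clone or a pool, nor whether libraries came from separate cultures.

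SETD8, also named KMT5A, is the methyltransferase that adds a single methyl group to lysine 20 of histone H4. The mark is known for covering the bodies of transcribed genes and for rising and falling with the cell cycle. TRIO encodes a guanine nucleotide exchange factor, a protein that loads small GTPases with GTP, and is best known for guiding axons and cell movement. A short TRIO product named Tgat was found in adult T-cell leukemia.

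The table gives 1 value per group and none per library, so no test of a difference could be made and there is no replicate check. Whether each value draws on both libraries of its group is not known. Its header does not name the groups. The deposited comparison is named treated versus control. Read in that order, the SETD8 knockout would be first, but since no header says so the groups are called first-listed and second-listed. Each log2 fold change is first-listed minus second-listed and comes from the authors' deposited table. TRIO was chosen by these same fold changes, so all of them are a description. Reads behind each value were recovered from the log2 values, with 2791207 first-listed and 2682916 second-listed reads over all peaks, and the second-listed reads were multiplied by 0.961 in the deposited scaling. Exact Clopper-Pearson 95% intervals on these reads cover counting error only, and are too narrow if both ends of a fragment were counted.

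The 37 peaks ran from 14112026 to 14504263 on chromosome 5 (hg38). Of these, 36 overlapped TRIO itself, which spans 14143702 to 14510203 on the plus strand in the transcripts of the table, and no other peak overlapped it. The remaining peak lay 31.7 kb before the gene and was classed as distal intergenic. By the authors' annotation 26 peaks were intronic, 7 lay in promoters, 2 in exons and 1 in a 5′ UTR. Only 1 of the promoter peaks stood near the start of the gene, and the other 6 belonged to short transcripts inside it.

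The 300 bases around the start of TRIO are shown because no peak overlapped them and the first peak of the gene began after them. The share of other promoter windows without a peak is not given here, so this may be common. RefSeq (GRCh38.p14, which has the hg38 coordinates of this chromosome) places this window at chr5:14143092-14143391 on the plus strand, with the first transcribed base at position 251. Capitals mark the GC box GGGCGG, searched on both strands, with its first bases at positions 60, 75 and 93 and no overlaps.
TRIO promoter: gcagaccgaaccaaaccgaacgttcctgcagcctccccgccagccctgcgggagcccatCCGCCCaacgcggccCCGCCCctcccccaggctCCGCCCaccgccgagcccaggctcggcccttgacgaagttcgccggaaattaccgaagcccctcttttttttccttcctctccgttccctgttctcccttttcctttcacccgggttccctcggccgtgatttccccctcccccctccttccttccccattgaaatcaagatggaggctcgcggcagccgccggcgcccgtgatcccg
The same motif is present in 44.95% of 35116 promoter windows of this length. The window holds 28 CG pairs, against a median of 14 over all windows, and its GC content was 66.3% against 58.7%. The first peak inside the gene started 1392 bases after the RefSeq start.

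All 37 TRIO peaks had more scaled H4K20me1 reads in the first-listed group, as did 58.2% of all peaks. With no spike-in used here, these are relative values and not amounts of the mark. Their median log2 fold change was 0.80, a ratio of 1.74, while the median over all 25514 peaks was 0.06. The lowest was 0.41 and the highest 1.37, which are ratios of 1.33 and 2.58. Summed over the 37 peaks, 13764 first-listed and 7668 second-listed reads gave a log2 ratio of 0.90 (0.86 to 0.94, or 0.84 to 0.96 with reads counted as pairs), a ratio of 1.87. The counting interval lay above 0 in 35 of the 37 peaks (34 as pairs), as it did in 17.1% of all peaks (9.15% as pairs). Deeper peaks have narrower intervals and TRIO peaks were deeper than most, so these shares do not compare peaks of like depth. A log2 fold change of 1 or more was listed for 11 TRIO peaks, with 1.05 just inside and 0.92 just outside that limit, and for 1.55% of all peaks.

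In the authors' deposited table no TRIO peak passed 0.05 by adjusted p, and neither did any other peak (0% of 25514). The authors' deposited table lists 24 TRIO peaks with an unadjusted p under 0.05, all higher in the first-listed group, and 3.37% of all peaks had such a p and direction. The p-values next to this limit were 0.0494 and 0.0507. The number of libraries behind these p-values is not known here, so they cannot be checked against the spread within a group.

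**Figure D1:**
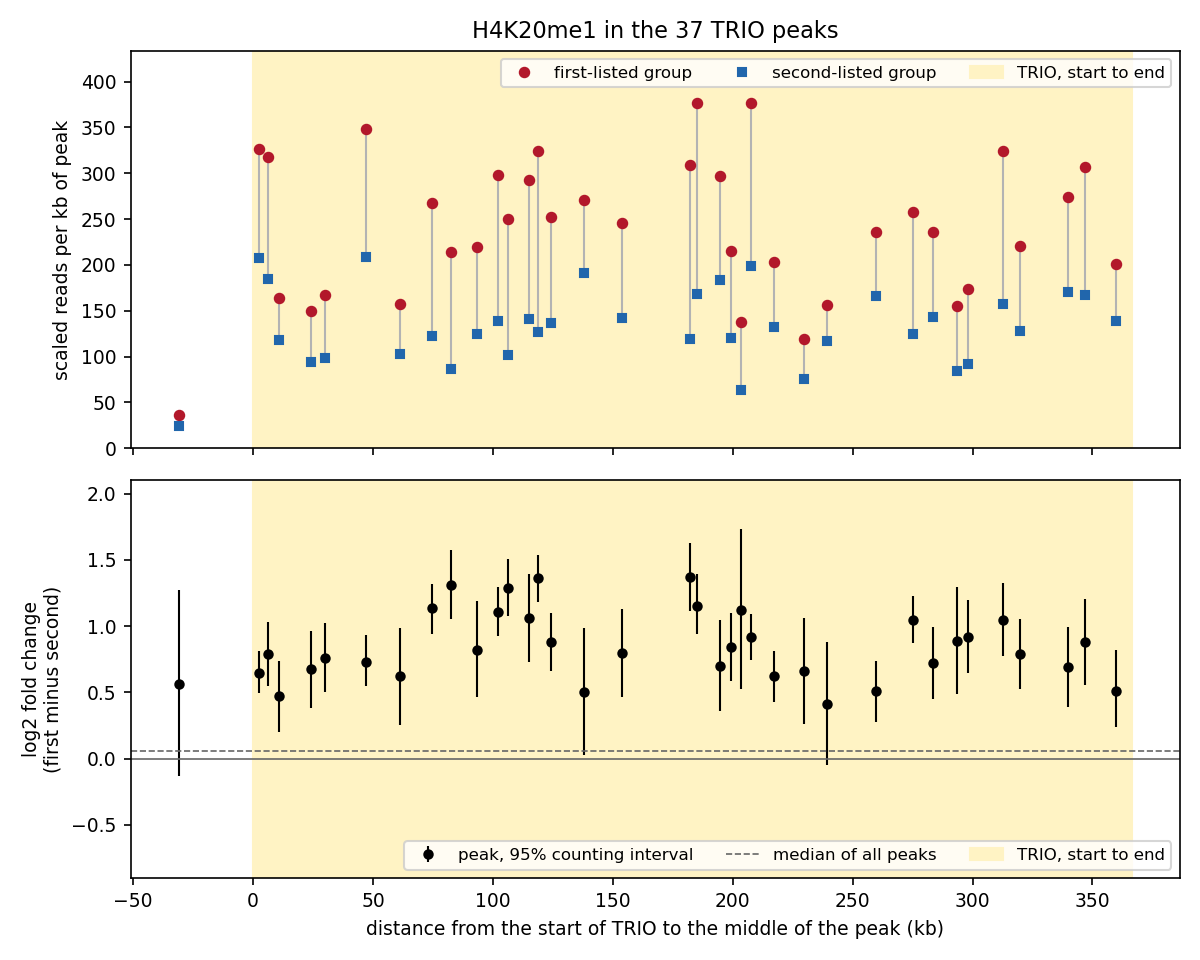
H4K20me1 in the 37 TRIO peaks by distance from the start of the gene (kb). The upper panel gives scaled reads per kb of peak in the first-listed (circles) and second-listed group (squares), and the lower panel the log2 fold change with its exact 95% counting interval. Circles lie above squares at all 37 peaks, and the peak before the gene is the weakest per kb (36.0 first-listed against 24.4 second-listed).

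Along the gene, the peak before it was among the weakest, with 44 first-listed and 31 second-listed reads and a log2 fold change of 0.56 (−0.13 to 1.27). The deepest peak came right after the start of the gene, at 14144734 to 14147285, with 832 first-listed and 551 second-listed reads (0.65, 0.49 to 0.81). The next, at 14149115 to 14150308 in the first intron, had 380 first-listed and 229 second-listed reads (0.79). The mark thus stood high in both groups in the deepest peak, with 326 first-listed and 208 second-listed scaled reads per kb. Such values were not particular to the beginning of the gene. The peak at 14350475 to 14352521 had 377 first-listed and 199 second-listed per kb, and that at 14166880 to 14168581, nearer the start, 149 and 93.8. Further into the first intron, 5 more peaks followed. Those that began 9.77, 23.2 and 29.0 kb after the start of the gene had 278, 254 and 324 reads in the first-listed group, against 209, 166 and 199 in the second-listed group, and fold changes of 0.47, 0.68 and 0.76. Those at 46.1 and 60.6 kb had 588 and 158 reads in the first-listed group, against 366 and 107 in the second-listed group (0.73 and 0.62). No peak of this stretch reached a log2 fold change of 1.

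A run of 8 peaks in the rest of that intron, from 14217019 to 14268987, held 6 of the 11 peaks with a log2 fold change of 1 or more. The stretch was picked out after its values were seen. Its highest peak, at 14260993 to 14263798, had 910 first-listed and 369 second-listed reads (1.36, 1.18 to 1.54), and with an unadjusted p of 6.81e-05 in the authors' deposited table it ranked 3 among all peaks. At 14225202 to 14227143 the groups had 416 first-listed and 174 second-listed reads (1.31, 1.06 to 1.58), and at 14248602 to 14250957 they had 588 first-listed and 250 second-listed reads (1.29, 1.07 to 1.51). In each of these 3 peaks the first-listed group thus had over double the reads of the second-listed group. The peaks at 73.3, 101.1 and 114.5 kb gave 1.14, 1.11 and 1.06, from 729, 739 and 232 reads in the first-listed group, against 347, 356 and 116 in the second-listed group. The other members of the run, at 93.1 and 123.4 kb, gave 0.82 (175 first-listed and 103 second-listed reads) and 0.88 (465 first-listed and 263 second-listed reads). Over the run the summed reads were 4254 first-listed and 1978 second-listed, a log2 ratio of 1.16 (1.08 to 1.24).

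The listed fold change was smaller in a shallow peak at the end of the short transcript that defines these introns. In its intron 3, the narrowest peak (332 bp, 14281642 to 14281973) had 90 first-listed and 66 second-listed reads (0.50, 0.03 to 0.99). With reads counted as pairs its interval was −0.18 to 1.20, and both intervals hold the log2 ratio of 0.90 summed over the TRIO peaks. In exon 7 of 57 of the full-length transcript, at 14297179 to 14298019, the groups had 207 first-listed and 124 second-listed reads (0.80). After a gap of 27212 bases, the longest inside the gene, intron 9 held a pair of peaks with wide differences again. The first of the pair, at 14325232 to 14326686, had 449 first-listed and 181 second-listed reads and the highest log2 fold change of all TRIO peaks (1.37, with an unadjusted p of 0.000152 in the authors' deposited table), and its neighbour, at 14328187 to 14329547, had 512 first-listed and 238 second-listed reads (1.15, 0.94 to 1.39). The 2 stretches of wide differences were separated by peaks of 0.50 and 0.80.

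In intron 11 the fold changes spread from 0.70 (184 first-listed and 118 second-listed reads) through 0.92 (771 first-listed and 424 second-listed reads) to 1.12 (75 first-listed and 36 second-listed reads, interval 0.52 to 1.73). The peak classed as 5′ UTR lay among them and gave 0.84 from 345 first-listed and 200 second-listed reads. Here the highest fold change belonged to the shallowest peak, with the widest interval. Exon 13 (14359418 to 14362161) had 556 first-listed and 377 second-listed reads and a fold change of 0.62 (0.43 to 0.81). Introns 18 and 21 had 135 and 91 reads in the first-listed group, against 89 and 71 in the second-listed group. Intron 21 gave the lowest fold change of the gene, 0.41, and its interval of −0.05 to 0.88 reached 0.

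The last stretch of the gene carried the 6 peaks near internal transcript starts and 4 intron peaks. The first internal promoter peak (14402529 to 14404127) gave 0.51 (377 first-listed and 276 second-listed reads, 0.28 to 0.74). The next one (14417288 to 14420258), the widest TRIO peak at 2971 bp, gave 1.05 (765 first-listed and 385 second-listed reads, 0.87 to 1.23) and lay above the first. Their intervals did not overlap by reads, but did with reads counted as pairs (0.79 to 1.31 against 0.18 to 0.83). The remaining 4 internal promoter peaks gave 0.92, 0.79, 0.69 and 0.88, from 311, 315, 239 and 223 reads in the first-listed group, against 171, 190, 154 and 126 in the second-listed group. The promoter peaks thus ran through much of the range of the intron peaks. Intron 34 gave 0.72, 0.89 and 1.05 in its 3 intronic peaks, with 294, 146 and 326 reads in the first-listed group, against 186, 82 and 164 in the second-listed group. The final peak, in intron 54 of 56 and 5940 bases before the end of the gene, had 241 first-listed and 174 second-listed reads (0.51, 0.24 to 0.82).

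By class, the median fold change was 0.85 over 26 intronic peaks, 0.79 over 7 promoter peaks and 0.80 over the 3 exon and 5′ UTR peaks. With the gene cut into 3 parts of equal length it was 0.81 over 14 peaks, 0.82 over 12 and 0.84 over 10. Summed reads gave 0.96 (0.90 to 1.01), 0.88 (0.81 to 0.96) and 0.82 (0.74 to 0.90) for the same parts. Over the 36 gene peaks, the Spearman correlation of position with fold change was −0.03, that of mean signal with fold change 0.37, and that of peak width with mean signal 0.88. These peaks share their columns and neighbours, so the correlations are descriptions. The standard deviation of the 37 fold changes was 0.26, where counting error alone gives 0.16, or 0.22 with reads counted as pairs. The summed ratio lay inside the interval of 24 of the 37 peaks, or 29 as pairs.

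TRIO peaks were also strong ones. Their median mean signal was 7.92 on the log2 scale of scaled reads per peak, against 6.15 over all peaks, and 35 of 37 reached the median of all peaks. Per kb of peak the median was 246 first-listed and 128 second-listed scaled reads, against 71.2 first-listed and 68.9 second-listed over all peaks. Deeper peaks of the table had somewhat higher fold changes in general (Spearman correlation 0.14 over 25514 peaks). Among the 3484 other peaks with a mean signal between the TRIO quartiles of 7.35 and 8.53, the median fold change was 0.16 and 68.9% were above 0, and in the 1214 intronic ones among these it was 0.24. All 37 TRIO peaks lay above the median of peaks of like signal, and 17 lay above the central 95% of them. Since TRIO was chosen by these fold changes and its peaks share the same columns, these counts are a description.

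**Figure D2:**
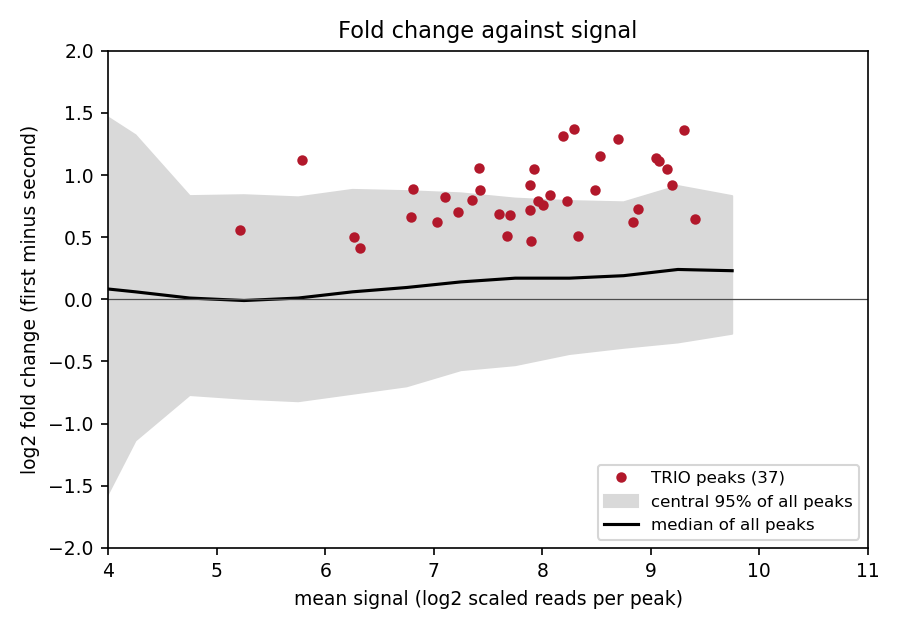
Log2 fold change against mean signal (log2 scaled reads per peak). Points are the 37 TRIO peaks, the line is the median of all peaks in bins of signal, and the band holds their central 95%. All points lie above the line, and 17 of them above the band.

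Genes around TRIO had smaller differences. Within 3 Mb of either end of the gene, 205 other peaks had a median log2 fold change of −0.05, with 93 above 0 and a range from −1.15 to 0.74, and none reached 1. Before the gene the median was −0.10 over 142 peaks, and after it 0.06 over 63 peaks (−0.05 with both columns scaled to equal reads in peaks, which takes 0.11 off each fold change and leaves the TRIO median at 0.69). Over the 1195 other peaks of the short arm it was −0.04, with 46.2% above 0. TRIO held 37 of 1232 peaks of the arm (3.00%).

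CTNND2, which encodes the adhesion protein δ-catenin, had a median of −0.12 over 38 peaks in this region, and the noncoding gene LINC01194 one of −0.06 over 20. DNAH5, which encodes a dynein heavy chain of cilia and is the last gene with peaks before TRIO, had a median of −0.04 over 14 peaks, with 1458 first-listed and 1577 second-listed reads. On the other side, OTULIN, a deubiquitinase of linear ubiquitin chains, had 0.35 over 3 peaks, and its promoter peak, with 820 first-listed and 859 second-listed reads, gave −0.02 (−0.15 to 0.13). ANKH, a membrane protein of pyrophosphate and ATP export, had 0.12 over 4 peaks and FBXL7, an F-box protein, 0.01 over 8. LINC02149 (0.06 over 4 peaks), MARCHF11 (−0.07 over 4), LINC02150 (−0.49 in 1 peak), ZNF622 (0.34 over 2), RETREG1 (0.08 over 4), MYO10 (0.15 over 3) and BASP1 (0.01 in 1 peak) lay farther out. The other 99 peaks of the region were intergenic, with a median of −0.07. The nearest peaks before the gene were too shallow to show where the difference ended. The closest that were not assigned to TRIO lay 132.2 and 149.9 kb from its start, and both gave 0.64. They had 54 and 60 reads in the first-listed group, against 36 and 40 in the second-listed group. Their intervals (0.01 to 1.29 and 0.04 to 1.26) hold both the TRIO median of 0.80 and the median of all peaks, 0.06. After the gene, the first peak with more than 1 read began 136.7 kb beyond its end, at −0.17 (−0.70 to 0.35).

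**Figure D3:**
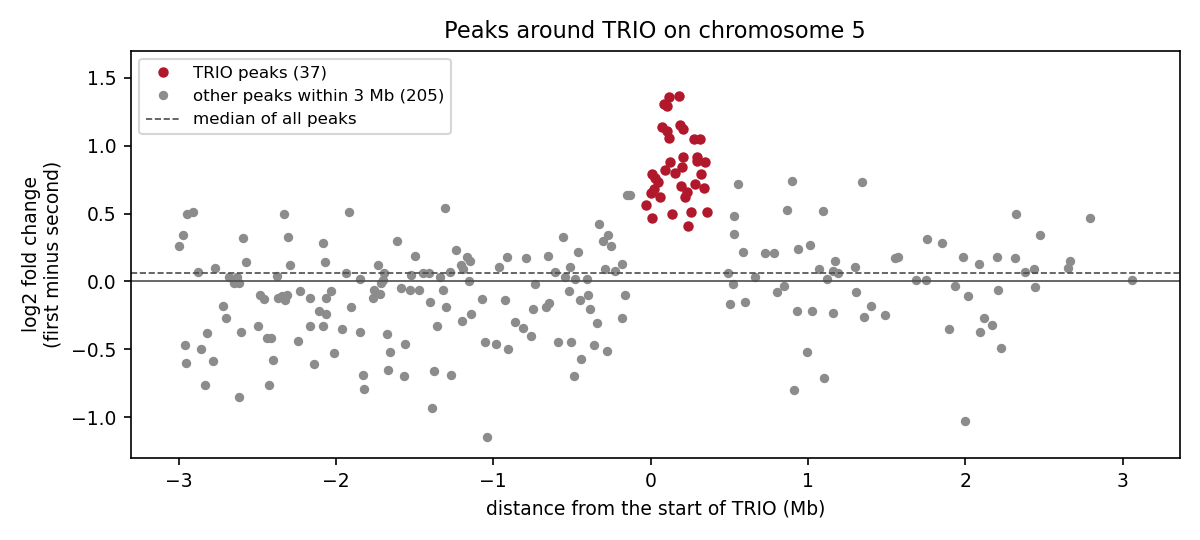
Log2 fold change of the 37 TRIO peaks and of the 205 other peaks within 3 Mb of the ends of the gene, by distance from the start of TRIO (Mb). The TRIO peaks stand between 0.41 and 1.37, and the other peaks between −1.15 and 0.74.

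Counted by gene, TRIO ranked 5 by number of peaks among 8786 genes with at least 1, at 9.81 peaks per 100 kb. Peaks covered 14.9% of its length, with a median gap of 7238 bases between neighbours. Of 385 protein-coding genes of 300 to 450 kb, 150 had no peak, the median was 1 peak and only 1 had more peaks than TRIO. Genes with about as many peaks had smaller medians. FNDC3B (47 peaks), JARID2 (38), which encodes a Polycomb cofactor, and MED13L (35), a Mediator subunit gene, had medians of 0.36, 0.34 and 0.25, and CTNND2, with 48 peaks in all, had −0.10.

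Of the 137 genes with 12 or more peaks, TRIO had the highest median fold change over its 36 peaks, 0.81, where the median over these genes was 0.07. It was followed by PVT1 (0.75 over 18 peaks), a noncoding gene beside MYC, ATP2C1 (0.74 over 12), a calcium pump of the Golgi, and CYRIB (0.73 over 14), a regulator of the actin cytoskeleton. All peaks were above 0 in 9 of the 137 genes, and TRIO was the one with the most peaks, followed by ZFAND3 with 24. With a limit of 6 peaks it ranked 6 of 628, behind GAB2 (1.03 over 6 peaks), CDK17 (0.93 over 8), LRP12 (0.87 over 7), SAMSN1 (0.85 over 6) and ABHD17C (0.84 over 6). TRIO contributed 10 of the 135 peaks of at least median signal with a log2 fold change of 1 or more (7.41%) and 8 of the 100 smallest unadjusted p-values in the authors' deposited table, where FAM107B came next with 4. Of all peaks, TRIO held 0.145%. TRIO was chosen by these same fold changes, so its ranks and shares are descriptions. No order among these genes was tested.

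**Figure D4:**
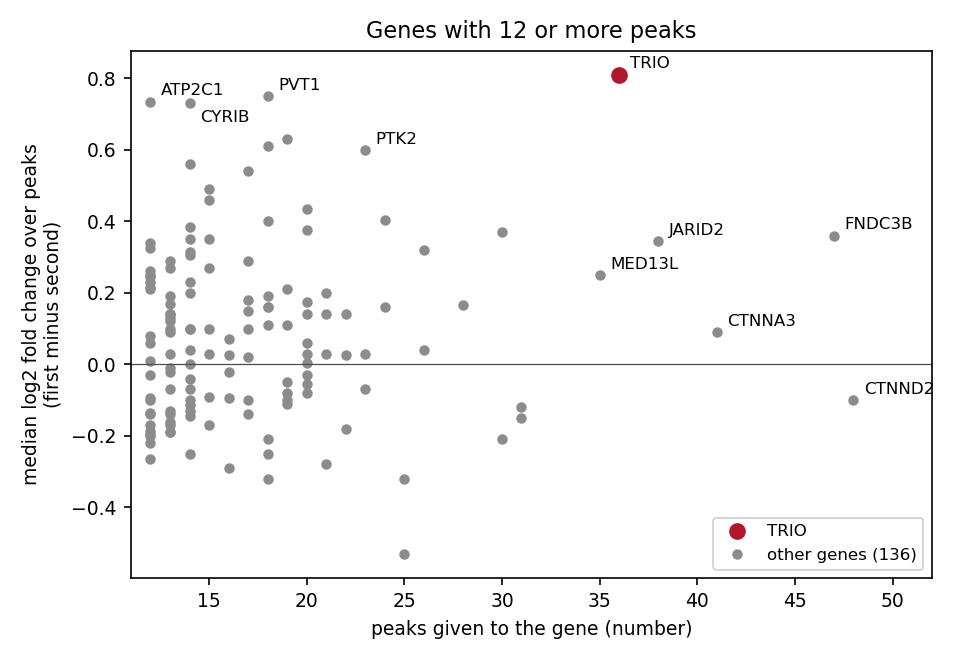
Median log2 fold change over a gene's peaks against its number of peaks, for the 137 genes with 12 or more. TRIO (36 peaks, 0.81) stands above the other 136 genes, and the others with 30 or more peaks lie between −0.21 and 0.37.

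Of 9 marker genes of the cell line's lineage and translocation, 6 carried a peak (CD34, KIT, MYB, RUNX1, RUNX1T1 and SPI1), and CD33, MPO and CEBPA did not. Markers of neurons had a peak in 3 of 5 genes and those of erythroid cells, lymphoid cells and fibroblasts in 1 of 4, 1 of 4 and 1 of 3. In all 8786 genes carried a peak, but their share of all genes was not counted. These few marker genes therefore do not identify the cells. A peak of the mark is no measure of expression.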

How the data were processed

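The authors deposited 1 table for the series, with values per peak and group. The submitters' processing notes name build hg38 and the tools cutadapt, Bowtie2 and DESeq; versions, peak caller and scaling are unstated. The header numbers its value columns, so their meaning was read from the deposited values: log2 scaled reads per group, their log2 fold change (equal to the difference of the columns within 0.01), a p-value and an adjusted p-value. Low log2 values (1.5 to 5.5) were log2 of whole numbers plus 1 constant per column, 0 and −0.057, within 0.0056, in all 5676 and 5851 cases. Each column thus behaved as 1 set of counts, as 1 library or reads merged before scaling would give. Which of these it was is not known here. Reads were recovered with these constants and are exact to 0.35% for deep peaks, and the median peak held 72 in each column. Printed starts are the table's, whose separate width column is 1 base larger in all 25514 peaks. With neither spike-in nor antibody-free control used here, a loss of the mark uniform over the genome would not show.

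Peaks were given to the host gene of an exon or intron, otherwise to the nearest gene, and distal intergenic peaks to none. The members and marker lists were chosen with earlier results of these data known. Named TRIO peaks are the 5 highest and 5 lowest of at least median signal, the first, last and deepest, and those in promoters and exons, with the rest given in order. A comparison with other genes of the same pathway is not reported here. Read recovery and intervals were tested on simulated counts with counting error only. That simulation held no read pairs and no spread between libraries, so it says nothing on either. Alternatives covered scaling, peak assignment, signal filters and thresholds. Python 3.11.15, pandas 2.3.3 and SciPy 1.17.1 were used.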

Additional observations from a re-analysis of the deposited data

How the results depend on the processing

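No paired analysis was possible because the table holds no columns of single libraries, and for the same reason no library could be left out. The median fold change of 0.80 was 0.69 with scaling to equal reads in peaks and 0.74 without scaling, and the summed ratio of 0.90 was 0.79 and 0.84. These shifts follow from the constant each scaling subtracts, and equal reads in peaks put the median of all peaks at −0.05. All 37 peaks stayed above 0 under both, and with scaling to equal reads in peaks 7 peaks reached a log2 fold change of 1, in place of 11. The lowest of these 7 stood at percentile 99.3 of the fold changes of all peaks, a standing that scaling does not change. The summed ratio was 0.94 for peaks chosen by host gene number alone, which leaves 28 peaks. A looser size limit of 0.5 admitted 35 peaks, and a log2 fold change of 0.50 stood at percentile 86.4 of all peaks. A stricter limit of 0.01 on the unadjusted p of the authors' deposited table left 12 peaks, in place of 24. The largest unadjusted p among these 12, 0.00897, ranked 251 among all peaks. The last minus the first of 3 equal parts of the gene gave 0.03 by medians and −0.14 by summed reads, and the cause was not tested. The rank of 1 by median fold change was 6 when genes with at least 6 peaks were ranked. Counting reads as pairs was chosen after seeing the data.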
